A study of Mus musculus with 108 samples.

Results

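The 6 members of the Cyp4a family of fatty acid omega-hydroxylases described here in mouse liver are Cyp4a10, Cyp4a14, Cyp4a12a, Cyp4a12b, Cyp4a31 and Cyp4a32. They were taken by gene symbol from 25125 symbols in the deposited tables, and the transcript with the highest mean stood for each gene. Cyp4a29 and Cyp4a30b were measured too, with medians of at most 0.0135 in every set of libraries, and are not among the 6. Sequencing of RNA from livers of male mice gave 108 libraries, in 6 sets of 18 with 3 replicates at each of 6 zeitgeber times (ZT, hours after lights on), namely ZT2, ZT6, ZT10, ZT14, ZT18 and ZT22. One set is labelled Errg-Cre (129S1/SvImJ) and one Esrrg LKO (B6 and diet-induced obesity by its titles, B6S1/SvImJ by its strain label), both with the diet label of the high fat and sucrose diet D12492i, and the series describes a knockout of Esrrg in hepatocytes without naming the promoter that drives Cre. The other 4 sets are wild type: 129S1/SvImJ (129) on that diet (HFD), 129 on normal chow, C57BL/6J (B6) on HFD and B6 on normal chow. The labels give no age and do not say that replicates are separate animals, so the spread behind the p-values is that between samples and may be technical. Each value is the read number of a transcript after quantile normalisation, in 3 tables (wild type, Errg-Cre and Esrrg LKO) that were normalised separately, so sets were tested only within a table and the sequencing depth is unknown.

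CYP4A enzymes are cytochromes P450 of the endoplasmic reticulum that hydroxylate the terminal carbon of fatty acids. The products are oxidised further to dicarboxylic acids, which peroxisomes shorten, and from arachidonic acid the pathway yields the vasoactive lipid 20-HETE. In mouse liver Cyp4a10 and Cyp4a14 are classical targets of the fatty acid receptor PPAR alpha and rise on fasting and with its agonists. Cyp4a12a is the main 20-HETE-forming enzyme of male mice, and it and its near-copy Cyp4a12b are male-biased genes that depend on androgen and on the pulsatile growth hormone of males. Cyp4a31 and Cyp4a32 are close relatives of Cyp4a10 whose roles are less well defined.

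The family forms a cluster on chromosome 4 (mm10). Cyp4a12a lies at 115299046 to 115332815 and Cyp4a12b at 115411624 to 115439034 on the plus strand. Cyp4a14 lies at 115486200 to 115496141 on the minus strand. Cyp4a10 (115518287 to 115533649), Cyp4a31 (115563649 to 115579015) and Cyp4a32 (115600938 to 115622366) follow on the plus strand. The coding stretch of 60 bases over the codon for the heme-binding cysteine, read from the GENCODE vM21 transcripts, is shown because it separates Cyp4a10 and its close relatives, the Cyp4a12 pair and Cyp4a14. Capitals mark bases that differ from Cyp4a10.
Cyp4a10, Cyp4a31 and Cyp4a32: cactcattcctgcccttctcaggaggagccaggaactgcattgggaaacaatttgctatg
Cyp4a12a and Cyp4a12b: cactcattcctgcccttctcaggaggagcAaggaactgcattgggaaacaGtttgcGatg
Cyp4a14: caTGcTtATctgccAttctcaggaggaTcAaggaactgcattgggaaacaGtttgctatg
The stretch was identical in Cyp4a10, Cyp4a31 and Cyp4a32, differed at 3 bases in both Cyp4a12 genes and at 9 bases in Cyp4a14. Over the whole coding sequence Cyp4a12a and Cyp4a12b were 98.49% identical, with 23 of 1527 bases differing. The 60 coding bases from 625 to 684, the stretch with most differences between the pair, are shown because reads can be assigned to 1 gene only at such differences, which are in capitals.
Cyp4a12a: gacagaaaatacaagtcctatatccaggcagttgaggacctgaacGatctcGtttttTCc
Cyp4a12b: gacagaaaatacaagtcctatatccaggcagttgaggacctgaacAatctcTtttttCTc
Of all stretches of 50 bases in the Cyp4a12a transcript, 48.9% also occur in Cyp4a12b, and 49.5% of those of Cyp4a12b occur in Cyp4a12a, so the split of reads within this pair is uncertain. The share found in any other member was 30.5% for Cyp4a10, 20.1% for Cyp4a31 and 46.8% for Cyp4a32. Cyp4a14 shared none, and its coding identity with the others was 75.8% to 76.9%. Neither Cyp4a12 gene shared a stretch with the other 4 members, so the contrast between the Cyp4a12 pair and Cyp4a10 or Cyp4a14 does not rest on that split. The build mm10 is the B6 genome, and reads of 129 that carry variants may be lost.

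All 6 members passed the filter on low values (a mean of at least 10) in the wild-type and Errg-Cre tables, and 5 passed in the Esrrg LKO table, where Cyp4a31 was below it. Several libraries stood apart. In 3 libraries 3.25% to 14.8% of the tested genes were under 1 (B6 chow ZT14 replicate 3, 129 chow ZT22 replicate 3 and B6 HFD ZT6 replicate 1). In B6 HFD ZT22 replicate 3 the acute phase genes Saa1 and Lcn2 were at 110300 and 10880, against next-highest values of 9658 and 201.9 in its set. That library also held the lowest level in its set of Cyp4a10 (51.2), Cyp4a14 (51.3), Cyp4a12a (7.72), Cyp4a12b (0.05) and Cyp4a32 (59.6), 5 of the 6 members, so values without it stand beside the diet and strain results of B6 that it moves most. In Errg-Cre ZT14 replicate 2 Saa1 and Lcn2 were at 51280 and 6219 (next-highest 1945 and 492.7). It had the lowest Cyp4a12a (1323) and Cyp4a12b (12.8) of its set. In B6 chow ZT18 replicate 3 Saa1 and Lcn2 were at 8893 and 197.5 (next-highest 1298 and 34.35), with the set's lowest Cyp4a14 (906.9). In 129 HFD ZT6 replicate 2 they were at 8893 and 325.3 (next-highest 2797 and 111.8), and no member was at its lowest. In 129 chow ZT18 replicate 3 Saa1 was at 609.8 (next-highest 243.3), with the set's lowest Cyp4a10 (444.2) and Cyp4a14 (472.6). Its Lcn2 was not the highest of the set. The hepatocyte markers listed were detected in every set, while all 7 kidney tubule markers, of a tissue that also expresses Cyp4a genes, averaged under 10 in every set. Their summed level had medians of 0.0325 to 0.566 over the sets and reached 79.8 in B6 chow, where the highest Slc34a1 (31.1) and Umod (11.7) were both in ZT14 replicate 3. Fewer cells of a type and less RNA per cell cannot be told apart in these bulk samples.

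**Figure D1:**
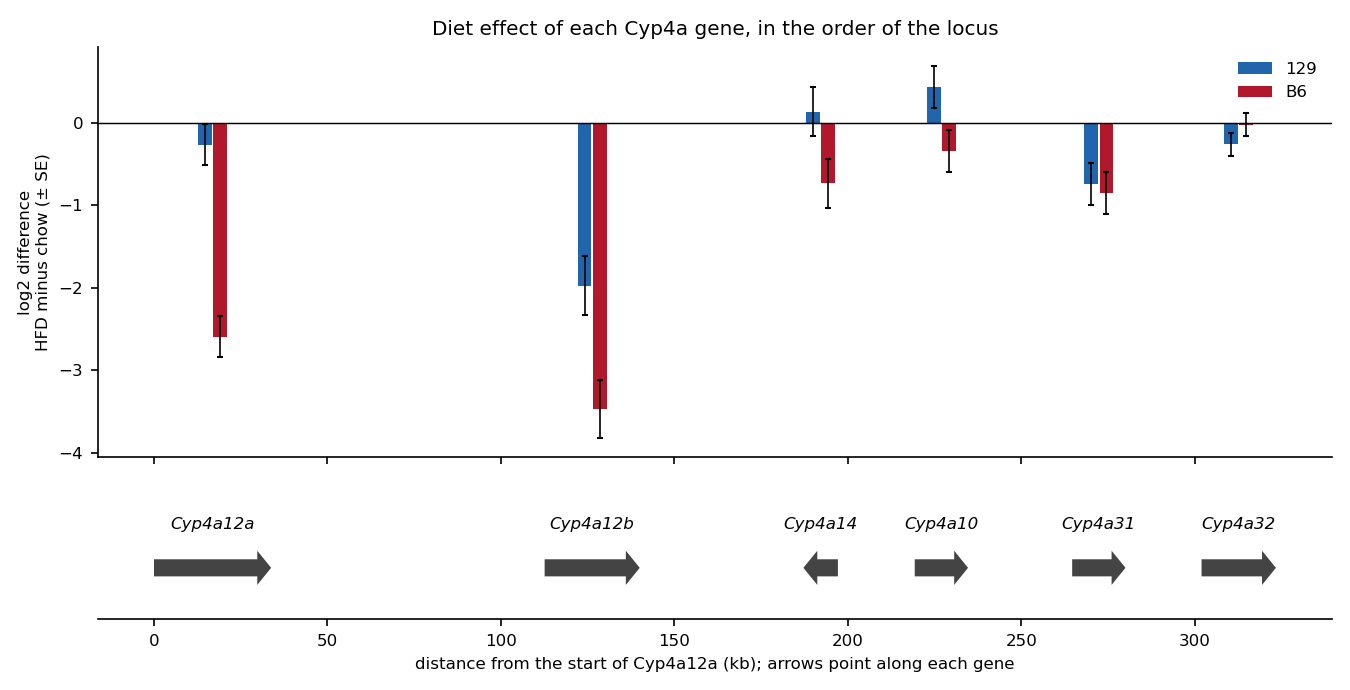
Map of the Cyp4a cluster drawn to scale, with the 6 genes as arrows in their direction of transcription (distance from the start of Cyp4a12a in kb), below bars for the log2 diet difference (HFD minus chow) of each gene in 129 and in B6, with SE. The Cyp4a12a and Cyp4a12b pair at one end shows the lowest bars in B6, at −2.59 and −3.47, while Cyp4a32 at the other end is at −0.02.

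Levels per kb of transcript, which allow genes to be compared, put Cyp4a10, Cyp4a14 and Cyp4a12a above the other 3 members in every set. In 129 HFD the medians per kb were 1167 for Cyp4a14, 970.6 for Cyp4a10 and 884 for Cyp4a12a, and in 129 chow Cyp4a12a (1053) stood above Cyp4a14 (910.2) and Cyp4a10 (657.5). In B6 HFD Cyp4a10 (909.2) and Cyp4a14 (874.1) stood far above Cyp4a12a (142.3), and in B6 chow the medians per kb were 1321 for Cyp4a14, 810.7 for Cyp4a10 and 628.8 for Cyp4a12a. Neighbours in these orders were often not separated within libraries: Cyp4a10 exceeded Cyp4a14 in 7 of 18 B6 HFD libraries, and Cyp4a10 exceeded Cyp4a12a in 8 of 18 libraries of 129 HFD and 9 of 18 of B6 chow. Cyp4a32, Cyp4a12b and Cyp4a31 had median levels per kb of 42.8 to 69.4, 12.2 to 145.2 and 2.92 to 7.62 over the 6 sets.

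The share of the Cyp4a12 pair in the summed level per kb of the 6 members shows how the makeup of the family differed. Its median was 30.4% in 129 HFD (16.2% to 64.4%), against 40.9% in 129 chow (23.4% to 77.5%). It was 7.88% in B6 HFD (2.14% to 29.4%), against 29.4% in B6 chow (13.4% to 48.7%). The median sum of Cyp4a10 and Cyp4a14, by contrast, was 5005 in 129 HFD, 3591 in 129 chow, 4279 in B6 HFD and 5108 in B6 chow.

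**Figure D2:**
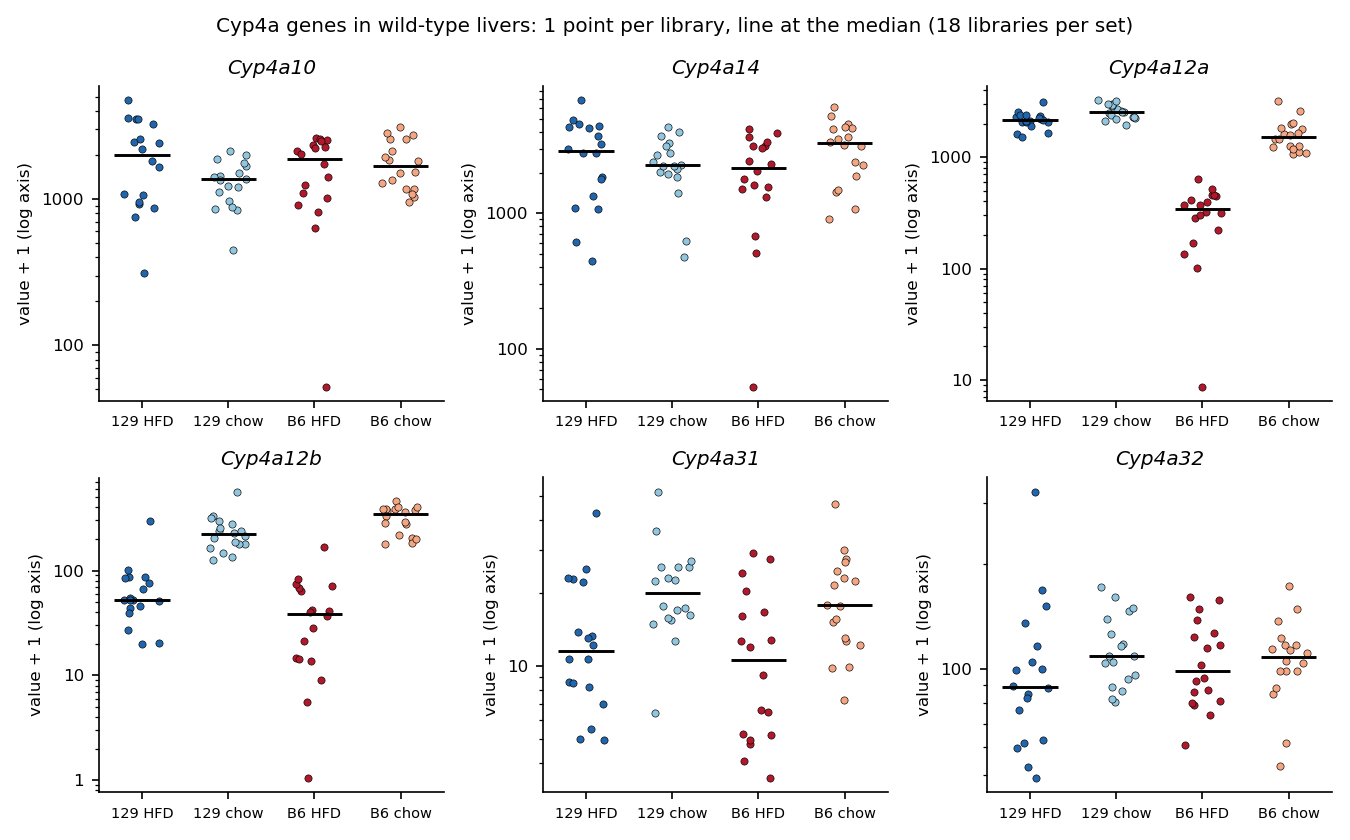
Levels of the 6 members (normalised read number + 1, log axis) in every wild-type library, by set (18 libraries each), with a line at the median. Cyp4a12a in B6 HFD lies below its other 3 sets, with a median of 342.8, whereas the Cyp4a10 and Cyp4a14 points of the 4 sets overlap.

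Of the members that depend on growth hormone and androgen, Cyp4a12b fell on HFD in both strains and Cyp4a12a fell in B6. In 129 HFD Cyp4a12a ran from 1521 to 3097 with a median of 2129, against 1946 to 3230 with a median of 2536 in 129 chow. These sets overlapped, and although the mean was lower on HFD at 6 of 6 times the difference did not pass (log2 −0.27 ± 0.25 SE, 95% interval −0.77 to 0.23, limma adjusted p = 0.522). At 3 of those times the replicates did not overlap between diets. The SE rests on a single estimate of the spread from all 72 wild-type libraries, B6 HFD included. Over all alternatives the adjusted p was 0.17 to 0.745. In B6 HFD Cyp4a12a ran from 7.72 to 640.7 with a median of 342.8, against 1068 to 3197 with a median of 1514 in B6 chow. The B6 sets did not overlap, and the level was 6.02-fold lower on HFD (log2 −2.59 ± 0.25, 95% interval −3.09 to −2.09, adjusted p = 2.07e-12, lower at 6 of 6 times). The diet difference in B6 by time lay between −3.37 at ZT22 and −1.89 at ZT14. Without B6 HFD ZT22 replicate 3 it averaged −2.27 over the times (adjusted p = 1.9e-19, the adjusted p over all alternatives reaching at most 0.000211).

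Cyp4a12b, the lower expressed of the pair, moved further. In 129 HFD it ran from 19.0 to 294.7 with a median of 51.4, against 126.1 to 561.5 with a median of 220.6 in 129 chow. Only 1 of the 18 HFD libraries, with 294.7 at ZT14, lay above the lowest chow library, and the level was 3.93-fold lower on HFD (log2 −1.97 ± 0.36, adjusted p = 3.86e-05, lower at 6 of 6 times). In B6 HFD it ran from 0.05 to 166.3 with a median of 37.7, against 179.4 to 463.5 with a median of 345.8 in B6 chow. The B6 sets did not overlap, and the level was 11.1-fold lower on HFD (log2 −3.47 ± 0.36, adjusted p = 1.41e-11), or −3.10 on the log2 scale without B6 HFD ZT22 replicate 3 (adjusted p = 3.65e-14, at most 0.00178 over all alternatives). Within the pair Cyp4a12b held a median of 2.27% of the summed level in 129 HFD and 8.21% in 129 chow, and 10.32% in B6 HFD and 16.2% in B6 chow.

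For the PPAR alpha targets of the family, no rise with the diet averaged over the day passed the test in either strain. Cyp4a10 ran from 309.6 to 4722 with a median of 2010 in 129 HFD, against 444.2 to 2125 with a median of 1362 in 129 chow. The sets overlapped, although 9 of 18 HFD libraries lay above the highest chow library, and the mean difference did not pass (log2 0.44 ± 0.26, 95% interval −0.08 to 0.95, adjusted p = 0.259). Cyp4a14 ran from 439.2 to 6831 with a median of 2896 in 129 HFD, against 472.6 to 4304 with a median of 2258 in 129 chow. It overlapped too, with a difference of 0.14 ± 0.29 (95% interval −0.45 to 0.73, adjusted p = 0.809). In both genes the difference was positive at 3 of 6 times and negative at the other 3.

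In B6 HFD Cyp4a10 ran from 51.2 to 2606 with a median of 1883, against 952.4 to 3106 with a median of 1679 in B6 chow. The medians lay close together and the difference did not pass (log2 −0.34 ± 0.26, 95% interval −0.86 to 0.18, adjusted p = 0.254), and it was −0.07 without B6 HFD ZT22 replicate 3 (adjusted p = 0.773, the range over all alternatives being 0.0535 to 0.908). Cyp4a14 ran from 51.3 to 4168 with a median of 2169 in B6 HFD, against 906.9 to 6142 with a median of 3277 in B6 chow. It fell in B6 (log2 −0.73 ± 0.29, adjusted p = 0.0278), lower at 4 of 6 times. At ZT22 alone the difference was −3.43, with 51.3, 509.9 and 3113 in B6 HFD against 3204, 5248 and 6142 in B6 chow. The call was lost without B6 HFD ZT22 replicate 3 (−0.48, adjusted p = 0.0868), without B6 HFD ZT14 replicate 1 (−0.63, 0.0605) and without B6 chow ZT18 replicate 2 (−0.67, 0.0508), in a range of 0.00105 to 0.632 over all alternatives.

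Of the close relatives of Cyp4a10, Cyp4a31 was low and fell in both strains, and Cyp4a32 passed in neither. Cyp4a31 had 3.96 to 41.6 in 129 HFD with a median of 10.5, against 5.43 to 51.2 with a median of 19.0 in 129 chow (log2 −0.74 ± 0.25, adjusted p = 0.0291, lower at 6 of 6 times). That call was lost without any 1 of 6 libraries (129 HFD ZT6 replicate 3, ZT14 replicates 2 and 3 and ZT22 replicate 3, and 129 chow ZT18 and ZT22 replicate 1, adjusted p up to 0.0633) and without each replicate number (0.0811, 0.157 and 0.14), in a range of 0.00794 to 0.157 over all alternatives. In B6 HFD it had 2.46 to 28.2 with a median of 9.58, against 6.26 to 45.7 with a median of 16.8 in B6 chow (−0.85 ± 0.25, adjusted p = 0.00302, lower at 5 of 6 times), which did not pass without replicate 3 (adjusted p = 0.0591, in a range of 0.000465 to 0.428 over all alternatives). The ranges overlapped in both strains. Cyp4a32 had medians of 87.9 in 129 HFD and 108.4 in 129 chow (−0.26 ± 0.14, adjusted p = 0.199), and of 97.8 in B6 HFD and 107.5 in B6 chow (−0.02 ± 0.14, 95% interval −0.30 to 0.26, adjusted p = 0.909).

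Counted over the family, 0 members rose and 2 fell with HFD in 129, where 7.45% of the 11287 genes tested fell and 10.9% rose. In B6 0 rose and 4 fell, where 32.7% of all genes fell, 27.5% rose and 60.2% did either. The median log2 difference of the 6 members was −0.26 in 129, against 0.04 over all genes, and −0.79 in B6, against −0.06 over all genes. Sets of 18 libraries that did not overlap between diets were found in 0 members in 129 (0.204% of all genes) and in 2 members in B6 (0.735% of all genes). With so many genes changed in B6, a single call there says little about the family, while the separation of the Cyp4a12 pair was shared by few genes. Without B6 HFD ZT22 replicate 3 the count in B6 was 3 that fell.

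**Figure D3:**
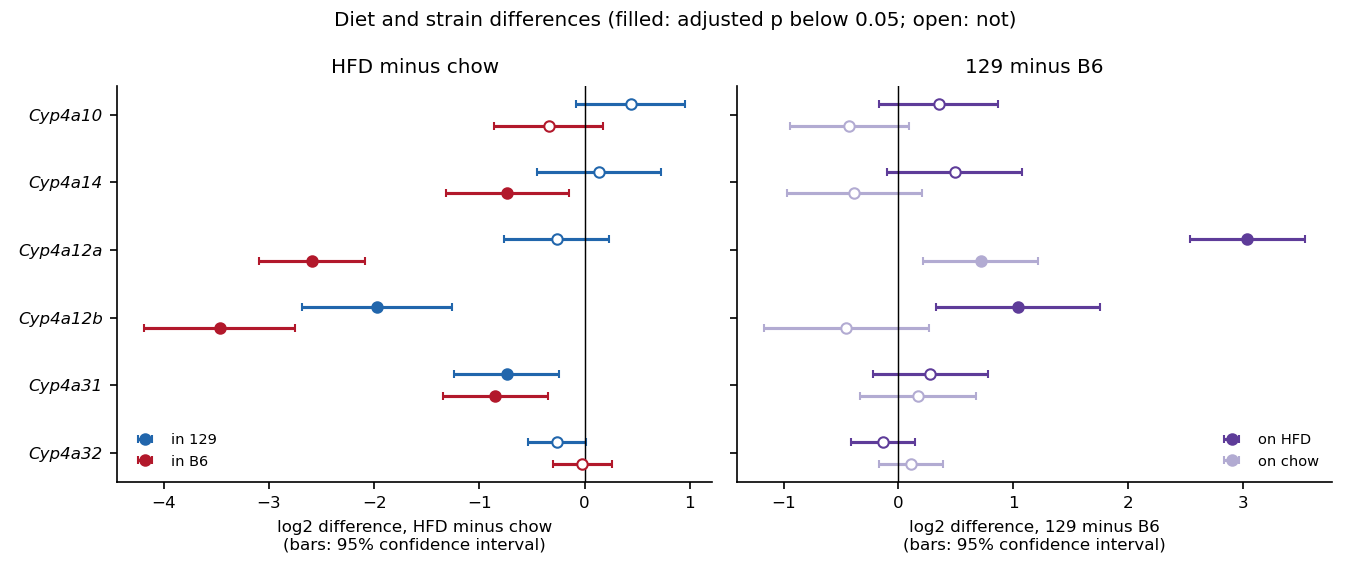
Log2 differences of the 6 members with 95% confidence intervals, for diet (HFD minus chow, in 129 and in B6) and for strain (129 minus B6, on HFD and on chow), filled where the adjusted p was below 0.05. Cyp4a12a stands at 3.04 for strain on HFD and at −2.59 for diet in B6, while the intervals of Cyp4a10 cross 0 in all 4 comparisons.

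Strain differences passed the test for the Cyp4a12 pair. On HFD Cyp4a12a was 8.21-fold higher in 129 than in B6 (log2 3.04 ± 0.25, adjusted p = 4.17e-15), and the 129 range of 1521 to 3097 lay wholly above the B6 range of 7.72 to 640.7. Without B6 HFD ZT22 replicate 3 the difference was 2.72 (adjusted p = 1.6e-23, at most 2.62e-07 over all alternatives). Cyp4a12b was 2.06-fold higher in 129 on HFD (1.04 ± 0.36, adjusted p = 0.0192), higher at 6 of 6 times, but the ranges overlapped at every time. That value was 0.67 without B6 HFD ZT22 replicate 3 (adjusted p = 0.0435) and 0.86 without B6 HFD ZT14 replicate 2 (adjusted p = 0.053), in a range of 0.0017 to 0.204 over all alternatives. On chow Cyp4a12a was 1.64-fold higher in 129 (0.71 ± 0.25, adjusted p = 0.0144, 6 of 6 times), with overlapping ranges. That call was lost without replicate 1 (adjusted p = 0.0983), without replicate 2 (0.0566) and with Mir6236, described further on, as a covariate (0.13), in a range of 1.92e-05 to 0.13 over all alternatives. On chow Cyp4a12b did not pass (−0.45 ± 0.36, adjusted p = 0.286).

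The other 4 members did not pass between strains on either diet with all libraries. On HFD their differences (129 minus B6) were 0.35 for Cyp4a10, 0.49 for Cyp4a14, 0.28 for Cyp4a31 and −0.13 for Cyp4a32, and on chow −0.43, −0.38, 0.17 and 0.11 in the same order. The HFD difference without B6 HFD ZT22 replicate 3 was 0.08 for Cyp4a10 (adjusted p = 0.805, in a range of 0.0822 to 0.805 over all alternatives) and 0.23 for Cyp4a14 (adjusted p = 0.512). That of Cyp4a14 without B6 HFD ZT22 replicate 1 was 0.72 and passed (adjusted p = 0.0235, in a range of 0.0235 to 0.512 over all alternatives). On HFD 2 members were higher in 129 and 0 lower, where 19.0% of all genes were higher, 13.3% lower and 32.3% differed, and on chow 1 was higher and 0 lower, where 25.4% were higher, 27.5% lower and 52.9% differed. Non-overlapping sets were found in 1 member on HFD (1.83% of all genes) and in 0 on chow (1.23%). Without B6 HFD ZT22 replicate 3 the chow difference of Cyp4a10, itself unchanged at −0.43, passed (adjusted p = 0.0449, in a range of 0.0449 to 0.766 over all alternatives).

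The test of the difference between the diet effects of the strains, 129 minus B6, passed for the Cyp4a12 pair. It was 2.32 ± 0.35 on the log2 scale for Cyp4a12a (95% interval 1.62 to 3.03, adjusted p = 5.09e-06) and 1.49 ± 0.50 for Cyp4a12b (0.48 to 2.51, adjusted p = 0.0189). Of all genes 20.1% passed in this direction and 34.4% in either. That split over all genes, 2272 positive and 1609 negative, turned to 736 and 1074 once each library's trend with GC content and transcript length was removed, where Cyp4a12a passed (2.08, adjusted p = 2.47e-05) and Cyp4a12b was at 1.24 (adjusted p = 0.0772). Without B6 HFD ZT22 replicate 3 it was 2.01 for Cyp4a12a (adjusted p = 5.05e-11) and 1.12 for Cyp4a12b (adjusted p = 0.0151), and Cyp4a12b did not pass without replicate 1 (0.154) or replicate 2 (0.07). The difference was positive but did not pass for Cyp4a10 (0.78 ± 0.36, adjusted p = 0.0895) and Cyp4a14 (0.87 ± 0.41, adjusted p = 0.0934). With B6 HFD ZT22 replicate 3 left out it was 0.50 for Cyp4a10 (adjusted p = 0.125) and 0.62 for Cyp4a14 (adjusted p = 0.151). Both passed without B6 HFD ZT22 replicate 1 (0.96, adjusted p = 0.0224, and 1.11, adjusted p = 0.0146), and Cyp4a14 without B6 chow ZT18 replicate 3 (adjusted p = 0.0487), in ranges of 0.0224 to 0.866 and 0.0146 to 0.862 over all alternatives. For Cyp4a31 it was 0.11 ± 0.35 and for Cyp4a32 −0.24 ± 0.20.

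The non-coding RNA gene Mir6236, which sets libraries of this series apart, also differed between the wild-type groups of strain and diet. Its median was 1104 in 129 HFD, 2570 in 129 chow (27.7 to 61430), 8292 in B6 HFD and 222.5 in B6 chow. Its diet difference in B6 was 5.50 ± 0.51. Its strain difference (129 minus B6) was −2.76 ± 0.51 on HFD and 3.69 ± 0.51 on chow, whereas Cyp4a12a was higher in 129 on both diets. With its level as a covariate the fall of Cyp4a12a in B6 was −2.43 (adjusted p = 0.000211), that of Cyp4a12b was −2.96 (adjusted p = 0.00178), and the strain difference of Cyp4a12a on HFD was 2.96 (adjusted p = 3.38e-11). The interaction of Cyp4a12a was then 2.14 with a wider error and did not pass (± 0.56, adjusted p = 0.11), nor did that of Cyp4a12b (0.90 ± 0.79, adjusted p = 0.857) or the falls of Cyp4a14 (−0.57, adjusted p = 0.632) and Cyp4a31 (−0.71, adjusted p = 0.428) in B6. The ranges of these adjusted p-values over all alternatives were 5.05e-11 to 0.11 and 0.00347 to 0.857 for the interactions.

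Markers of other liver cell types moved with the diet as well. Of 10 Kupffer cell (resident macrophage) markers 6 rose in each strain, and their summed level was 913.8 to 2125 in 129 HFD, 632.7 to 2522 in 129 chow, 1213 to 5884 in B6 HFD and 823.6 to 2105 in B6 chow. Of 6 tested stellate cell markers of 7 listed, 2 rose in 129 (summed 1933 to 3121 on HFD and 1801 to 2517 on chow) and 5 rose in B6 (2518 to 4442 on HFD and 1806 to 2470 on chow). Of 7 sinusoidal endothelial markers, 2 rose and 1 fell in 129 and 5 rose in B6 (summed 1838 to 3042, 1427 to 2835, 1746 to 2731 and 1315 to 2273 in 129 HFD, 129 chow, B6 HFD and B6 chow). Of 12 hepatocyte markers 1 rose and 3 fell in 129, and 4 rose and 5 fell in B6. Among all genes tested 10.9% rose and 7.45% fell in 129, and 27.5% rose and 32.7% fell in B6. No marker of these lists was at 0 in all libraries of a set, and the part of these cells in the Cyp4a differences was not tested.

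Over the day, Cyp4a10 and Cyp4a14 were rhythmic in 129 on HFD. A cosine with a period of 24 h gave Cyp4a10 an amplitude of 1.20 ± 0.27 on the log2 scale with a peak at ZT21.6 (limma adjusted p = 0.00591) and Cyp4a14 an amplitude of 1.26 ± 0.32 with a peak at ZT22.3 (adjusted p = 0.0214). At ZT22 the replicates of 129 HFD had 2551, 3494 and 4722 for Cyp4a10, and at ZT10 they had 309.6, 863.1 and 949.1. Cyp4a14 had 4560, 4877 and 6831 at ZT22 and 439.2, 1072 and 1780 at ZT10, so ZT10 and ZT22 did not overlap in either gene. They were the times with the lowest and highest means in these same data, so their separation adds nothing to the test. These 2 members were the ones called in 129 HFD, where 7.04% of all genes were called. The Cyp4a10 call was lost without replicate 1 (adjusted p = 0.0638) and without replicate 2 (adjusted p = 0.193), in a range of 4.57e-06 to 0.193 over all alternatives. The Cyp4a14 call was lost without each replicate number (0.058 to 0.244) and without 129 HFD ZT10 replicate 3 (adjusted p = 0.1) or ZT22 replicate 2 (adjusted p = 0.0513), in a range of 0.000801 to 0.244 over all alternatives.

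By limma, with all libraries, 0 members passed the rhythm test in the other sets, where the background was 47.8% of genes in 129 chow, 4.08% in B6 HFD, 6.16% in B6 chow, 17.9% in Errg-Cre and 6.09% in Esrrg LKO. Only Cyp4a31, in B6 HFD and in Errg-Cre, was under 0.05 before adjustment in these 5 sets. Its amplitudes were 0.89 ± 0.25 (limma adjusted p = 0.0579) and 0.57 ± 0.19 (limma adjusted p = 0.0894). It passed in B6 HFD without any 1 of 8 libraries and in Errg-Cre without ZT2 replicate 3 or ZT22 replicate 2, with adjusted p-values of 0.0282 to 0.405 and 0.0441 to 0.407 over all alternatives. In B6 HFD, with ZT22 replicate 3 included, the amplitudes of Cyp4a10 and Cyp4a14 were 0.10 ± 0.27 and 0.39 ± 0.32. In B6 chow they were 0.44 ± 0.27 (peak at ZT20.3) and 0.39 ± 0.32 (peak at ZT22.6). Whether rhythms differed between the strains was not tested. In 129 HFD the Cyp4a12 pair had amplitudes of 0.17 ± 0.25 (Cyp4a12a) and 0.36 ± 0.34 (Cyp4a12b) and did not pass. In 129 HFD compared with 129 chow, the diet difference of Cyp4a10 was −1.18 at ZT10, 1.84 at ZT18 and 1.39 at ZT22, and that of Cyp4a14 was −1.56 at ZT10, 2.28 at ZT18 and 0.85 at ZT22. The level at ZT18 was 3728 to 4401 for Cyp4a14 in 129 HFD, against 472.6 to 2131 in 129 chow. The 472.6 was in replicate 3, the library with the highest Saa1 of 129 chow. In 129 chow the libraries' trend with GC content differed by time. Its slope (log2 per 10 points of GC) was −0.993 to 0.367 at ZT2 and ZT6, and 0.416 to 0.737 at ZT18 and ZT22. In 129 HFD it was −0.042 to 0.482 over all times. The differences at single times were not corrected for this trend, and its part in them was not tested. The test of the change in rhythm with diet in 129 gave 1.38 ± 0.39 for Cyp4a10 (adjusted p = 0.102) and 1.51 ± 0.46 for Cyp4a14 (adjusted p = 0.138), and 0 members passed by limma, where 1.26% of all genes passed in 129 and 0.0532% in B6. Before adjustment Cyp4a10 and Cyp4a14 in 129 and Cyp4a31 in B6 were under 0.05. The 129 values of Cyp4a10 and Cyp4a14 passed without B6 HFD ZT22 replicate 3 (adjusted p = 0.00571 and 0.0303, in ranges of 0.00571 to 0.784 and 0.0303 to 0.765 over all alternatives), which alters the pooled spread and not the 129 values.

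**Figure D4:**
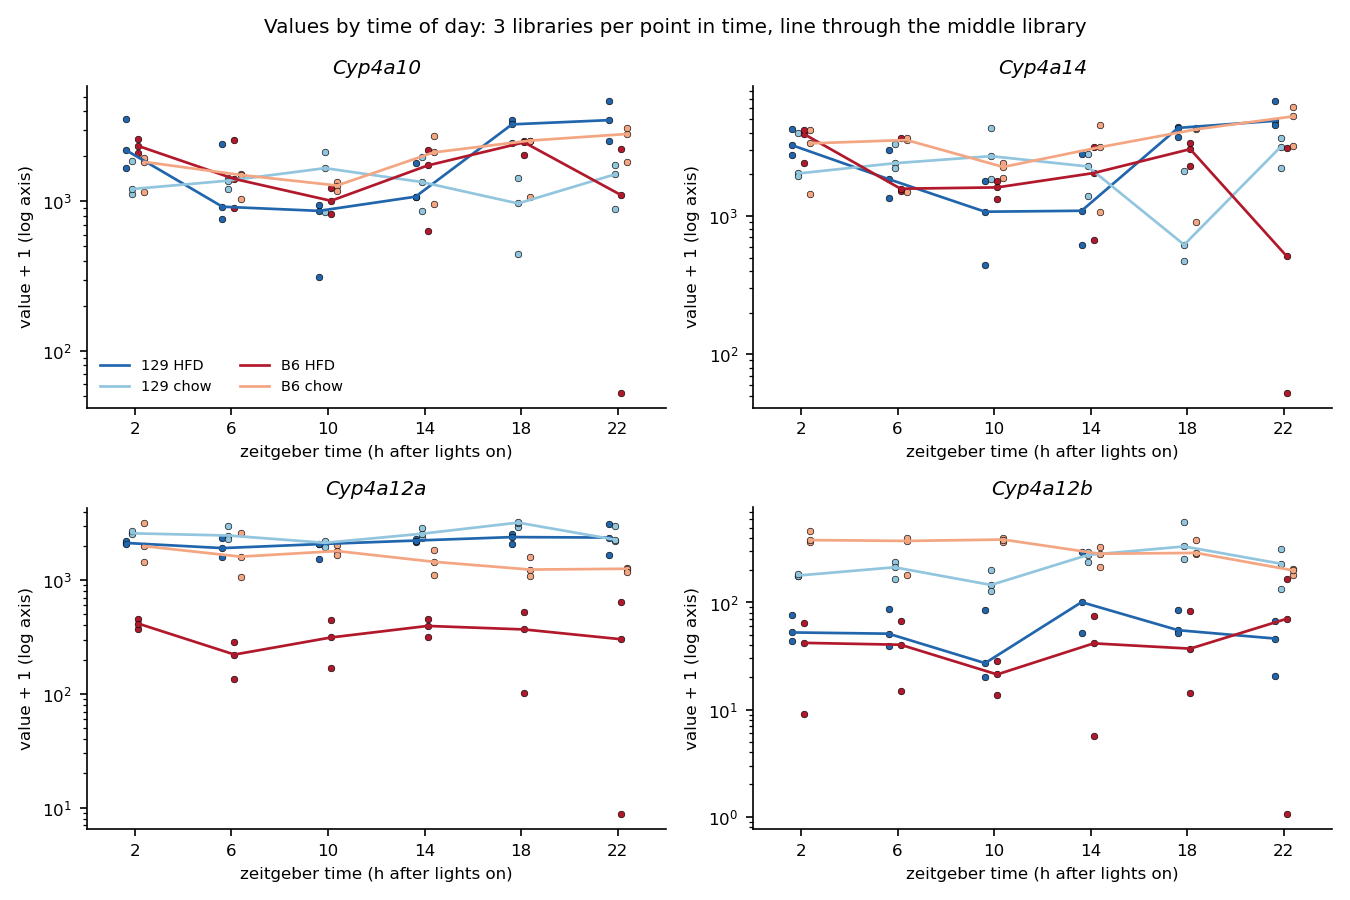
Levels of Cyp4a10, Cyp4a14, Cyp4a12a and Cyp4a12b (normalised read number + 1, log axis) by zeitgeber time in hours in the 4 wild-type sets, with points for single libraries and lines through the middle of 3 replicates. In 129 HFD the middle values of Cyp4a10 and Cyp4a14 were 863.1 and 1072 at ZT10 and 3494 and 4877 at ZT22, while the line of Cyp4a12a in B6 HFD stays below the other 3 at every time.

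The effect of the genotype was not tested, since no labelled control sample shares a table with the Errg-Cre or Esrrg LKO libraries, and levels are set side by side. A further 18 columns of the Errg-Cre table have GFP in their names, match no labelled sample and were not used. Cyp4a12a ran from 1323 to 2687 with a median of 2223 in Errg-Cre and from 92.6 to 390.6 with a median of 225.4 in Esrrg LKO, beside medians of 2129 in wild-type 129 HFD and 342.8 in wild-type B6 HFD. Within both tables Cyp4a10 and Cyp4a14 spread widely. In Errg-Cre Cyp4a10 ran from 355.7 to 8163 with a median of 1087 and Cyp4a14 from 559.9 to 10630 with a median of 1886, the highest values of both being in ZT2 replicate 1. In Esrrg LKO Cyp4a10 ran from 297.6 to 3528 with a median of 794.4 and Cyp4a14 from 458.7 to 4007 with a median of 1147.

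Per kb the order within the Errg-Cre table was Cyp4a12a (median 923.3), Cyp4a14 (760.1), Cyp4a10 (524.6), Cyp4a32 (69.4), Cyp4a12b (37.7) and Cyp4a31 (5.64). Within the Esrrg LKO table it was Cyp4a14 (462.1), Cyp4a10 (383.6), Cyp4a12a (93.6), Cyp4a32 (42.8), Cyp4a12b (12.2) and Cyp4a31 (2.92). The Cyp4a12 pair made up a median of 39.3% of the family per kb in Errg-Cre and 9.12% in Esrrg LKO, beside 30.4% in wild-type 129 HFD and 7.88% in wild-type B6 HFD. Esrrg, the orphan nuclear receptor gene named in both labels, was at 8.23 to 62.0 in Errg-Cre and 7.64 to 39.4 in Esrrg LKO. With no labelled control in either table it does not check the labels.

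**Figure D5:**
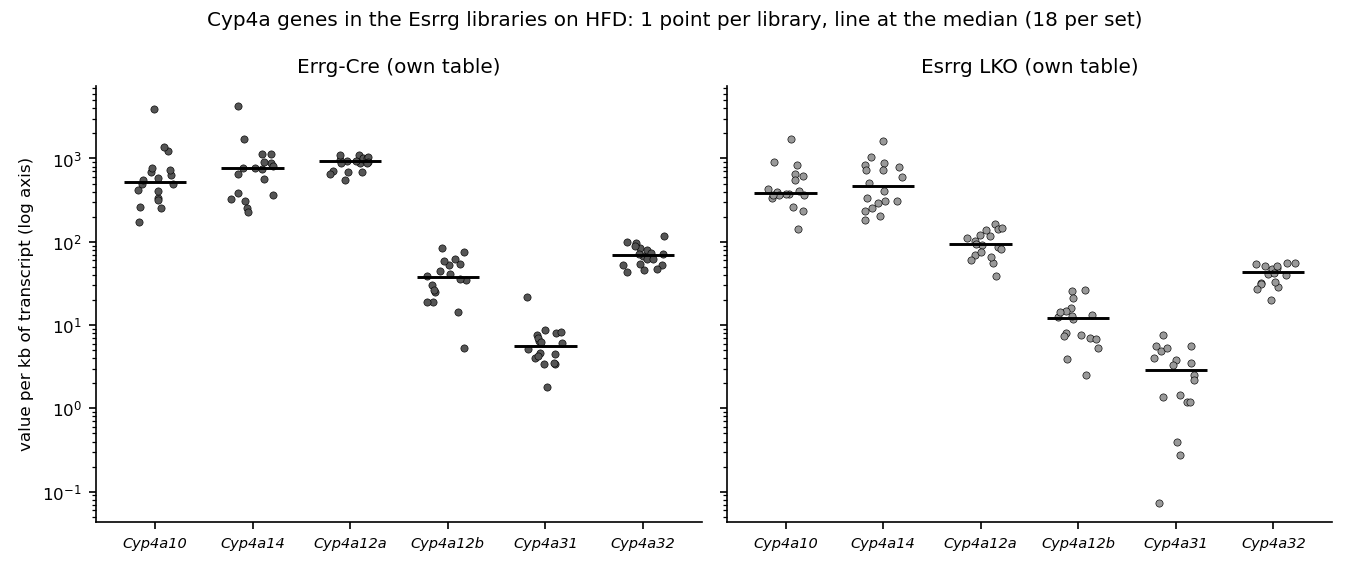
Level per kb of transcript (log axis) of the 6 members in every library of the Errg-Cre and Esrrg LKO sets, with a line at the median. The tables were normalised separately, so the panels are to be read within a set: Cyp4a12a has a median of 923.3 and lies above Cyp4a10 at 524.6 in Errg-Cre, and has a median of 93.6 and lies below Cyp4a10 at 383.6 in Esrrg LKO.

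Of 38 PPAR alpha targets outside the family, 22 rose and 0 fell in 129 (median log2 difference 0.39), and 28 rose and 2 fell in B6 (median 0.53). Over all genes 10.9% rose and 7.45% fell in 129, and 27.5% rose and 32.7% fell in B6. In 129 the largest were the fasting hormone gene Fgf21 (3.12 ± 0.40), the fatty acid transporter gene Cd36 (1.22), the lipid droplet coat gene Plin2 (1.13) and the carnitine palmitoyltransferase gene Cpt1b (1.005). In B6 they were Fgf21 (2.95 ± 0.40), Plin2 (1.83), the enoyl-CoA isomerase gene Ech1 (1.63) and the peroxisomal thiolase gene Acaa1a (1.38). Ppara, which encodes the receptor itself, rose in 129 (0.52 ± 0.08, adjusted p = 4.37e-06) and in B6 (0.81 ± 0.08, adjusted p = 9.13e-12). Of 20 tested genes that take part in omega and dicarboxylic acid oxidation, 6 rose and 2 fell in 129, among them Aldh3a2, the fatty aldehyde dehydrogenase (0.52), and Por, the reductase that supplies P450 enzymes with electrons (−0.64). In B6 9 rose and 3 fell, with Aldh3a2 at 0.57, the thioesterase gene Acot8 at 1.01 and the P450 gene Cyp4v3 at −0.67.

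Of 21 male-biased liver genes outside the family, 4 rose and 5 fell in 129 (median 0.10), where 10.9% of all genes rose and 7.45% fell. In B6 5 rose and 12 fell (median −0.73), where 27.5% of all genes rose and 32.7% fell. In 129 the glucuronosyltransferase gene Ugt2b1 fell (−0.99 ± 0.24) and the urinary protein gene Mup20 rose (0.97 ± 0.17). In B6 Ugt2b38 (−3.23 ± 0.36), the protease inhibitor gene Serpina1e (−2.33 ± 0.28) and the steroid dehydrogenase gene Hsd3b5 (−2.11 ± 0.58) fell, all from families with close copies. The test of the difference between strains passed for 7 of the 21, all positive, where 20.1% of all genes passed in that direction and 34.4% in either, a split that turned after the correction for GC content and length. The median was 0.77 over the list against 0.10 over all genes. Of 17 female-biased genes only 6 were tested, of which 1 rose and 1 fell in 129 and 2 rose and 2 fell in B6. Cyp2b9, a P450 gene of female liver, rose in B6 (4.79 ± 0.51), and Cyp2a4 fell in 129 (−4.48 ± 0.54) and in B6 (−2.25 ± 0.54).

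Of 18 regulators tested, 3 rose and 5 fell in 129 and 7 rose and 6 fell in B6. Among all genes tested 10.9% rose and 7.45% fell in 129, and 27.5% rose and 32.7% fell in B6. The growth hormone receptor gene Ghr did not pass in 129 (−0.08 ± 0.07, adjusted p = 0.527) and fell in B6 (−0.27 ± 0.07, adjusted p = 0.00159), and Stat5b, which encodes the transcription factor of that receptor, was at 0.24 ± 0.12 in 129 (adjusted p = 0.149) and rose in B6 (0.57 ± 0.12, adjusted p = 4.78e-05). Socs2, a growth hormone response gene, fell in B6 (−1.10 ± 0.39, adjusted p = 0.0132). Igf1, the growth factor gene that growth hormone induces in liver, fell in 129 (−0.61 ± 0.09) and in B6 (−0.77 ± 0.09). Esrrg rose in 129 (0.78 ± 0.26, adjusted p = 0.0276) and in B6 (0.92 ± 0.26, adjusted p = 0.00213). Of 6 tested neighbours of the cluster 3 fell in B6, namely Atpaf1 (−0.78), Efcab14 (−0.43) and Cmpk1 (−0.20), and in 129 the diet test passed for no neighbour.

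Across the 24 means of the wild-type groups, the genes whose log2 levels ran most like each member were ranked by Pearson correlation, as a description of means that share libraries and normalisation. Cyp4a10 and Cyp4a14 ranked first for each other (r = 0.914), followed for Cyp4a10 by Mocs2 (0.754) and for Cyp4a14 by Tbc1d7 (0.762). Cyp4a12a was most like Plekhb1 (0.930) and Cps1, the first enzyme of the urea cycle (0.893). Cyp4a12b was most like Cyp3a59 (0.929) and Lsm12 (0.919), and its r with Cyp4a12a was 0.685. The r of Cyp4a10 with Cyp4a12a was 0.182.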

How the data were processed

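Per the labels' protocols, total liver RNA was isolated with Trizol and RNeasy columns, and libraries were built with TruSeq reagents. The authors deposited signal values, 1 per RefSeq transcript and library, which are read numbers after quantile normalisation. The submitters' processing notes name STAR, HOMER and mm10 without versions. The wild-type, Errg-Cre and Esrrg LKO tables total 10837743, 12305608 and 10346206 in every library, so depth is unknown, counting error has no interval, and a shift common to most genes is not visible. A further 18 columns of the Errg-Cre set's file, named GFP, match no labelled sample and were not used. The headers of the table of Esrrg LKO read Errg Cre, and it was assigned by the samples' own descriptions.

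Values were tested as log2(value + 1), so folds of low genes are understated. Transcripts with a mean of at least 10 were kept, with the highest per symbol (11287, 11622 and 11946 genes). Groups of strain, diet and time were fitted by limma (version 3.58.1, R 4.3.3, trended eBayes), averaged over the 6 times, with Benjamini-Hochberg adjustment over all genes at 0.05. Rhythms were cosine fits of 24 h tested by limma's moderated F with 2 degrees of freedom. Errors are SE. The procedure was tested on simulated data. Sequences were read with Biopython 1.88.

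Same-numbered wild-type libraries had a median correlation of 0.00494 (lowest −0.668), against −0.00277 for differently numbered ones. Libraries were fitted as unpaired, although a median cannot show whether some groups were paired. Alternatives were pseudocounts of 0.1 and 10, no filter, the mean of all transcripts, a replicate block, a GC and length correction, a Mir6236 covariate, and leaving out replicates or libraries. The members and gene lists were chosen with earlier results of these data known, and some were taken over from such work. All members are named. Up to 4 of the most changed genes of a list and up to 3 of the most similar genes were named by rule, with regulators and markers of single libraries added after values were seen. One gene that the rule names is not reported here.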

Additional observations from a re-analysis of the deposited data

Results flagged for a closer look

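The diet effect of Cyp4a12a differed between the strains by the interaction test, by 2.32 ± 0.35 on the log2 scale (129 minus B6, limma adjusted p = 5.09e-06), with a diet difference of −0.27 in 129 and −2.59 in B6. That of Cyp4a12b differed by 1.49 ± 0.50 (adjusted p = 0.0189), with −1.97 in 129 and −3.47 in B6. The pair shares 48.9% of the 50-base stretches of Cyp4a12a, so these results are not independent.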

How the results depend on the processing

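Of 5852 values of members under the alternatives, 5793 kept their side of the threshold, 41 lost a call and 18 gained one. The sign changed with a call in either fit in 0 of them. Sign changes of values that passed in neither fit count as kept. An example is Cyp4a32 for diet in B6, at −0.0208 with all libraries and −0.0734 to 0.0441 without single libraries. Rhythm amplitudes have no sign. The falls of both Cyp4a12 genes in B6, that of Cyp4a12b in 129 and the strain difference of Cyp4a12a on HFD passed under every alternative run. The fall of Cyp4a14 in B6 did not pass without the filter (−0.73, limma adjusted p = 0.0556), after the GC and length correction (−0.50, with or without the replicate block), with the Mir6236 covariate (−0.57) or without the 3 libraries of most low values (−0.67). That of Cyp4a31 was −0.71 with the covariate in B6 and −0.74 without the filter in 129 (adjusted p = 0.0576), and its rhythm in B6 HFD passed (0.91, adjusted p = 0.049) once GC and length trends were removed. The interaction of Cyp4a12b was 1.24 after that correction (adjusted p = 0.0772, and 0.0715 with the block) and 0.90 with the covariate, where that of Cyp4a12a was 2.14, the strain difference of Cyp4a12b on HFD 0.79 and that of Cyp4a12a on chow 0.82, none of which passed. The cause of these changes was not tested. The replicate block alone changed no call of a member.

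Over all genes the covariate left 564 calls for diet in B6, 1445 for strain on chow, 14 for the interaction, 1662 for rhythm in 129 chow and 11 for the rhythm change in 129. The GC and length correction gave 1810 interaction calls, 736 higher and 1074 lower (1793 with the block), against 2272 higher and 1609 lower without it, and in Errg-Cre 1283 rhythmic genes (1113 with the block), while with the block 0 rhythm changes in B6 were called. Without the filter 31 genes changed rhythm in 129 and 1201 were rhythmic in Errg-Cre, and without the 3 libraries 281 and 14 changed rhythm in 129 and B6. Leaving out 1 replicate number or 1 library gave ranges of 556 to 2521 calls for diet in 129, 2077 to 4143 for strain on HFD and 1296 to 4408 for the interaction. For rhythms the ranges were 235 to 935 in 129 HFD, 2160 to 6230 in 129 chow, 140 to 556 in B6 HFD, 162 to 836 in B6 chow, 368 to 2558 in Errg-Cre and 166 to 860 in Esrrg LKO, and for rhythm changes 0 to 491 in 129 and 0 to 10 in B6. For members they were −0.97 to −0.48 (Cyp4a14) and −1.05 to −0.61 (Cyp4a31) for diet in B6, −0.87 to −0.60 for diet in 129 (Cyp4a31), and 0.23 to 0.72 (Cyp4a14) and 0.67 to 1.28 (Cyp4a12b) for strain on HFD. They were 0.66 to 0.77 (Cyp4a12a) and −0.61 to −0.15 (Cyp4a10) for strain on chow. For the interaction they were 0.50 to 0.96 (Cyp4a10), 0.58 to 1.14 (Cyp4a14) and 1.12 to 1.73 (Cyp4a12b). For rhythm amplitude they were 0.98 to 1.42 (Cyp4a10) and 1.07 to 1.48 (Cyp4a14) in 129 HFD, 0.75 to 1.05 in B6 HFD and 0.38 to 0.77 in Errg-Cre (Cyp4a31), and 1.01 to 1.63 (Cyp4a10) and 1.14 to 1.83 (Cyp4a14) for the change in 129. Depth is unknown, which limits what can be said of Cyp4a31 and of the lowest Cyp4a12b values.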
